A study of Mus musculus with 6 samples.

Results

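Expression in a mouse kidney 3 days after a 45 min clamp was compared with that in a kidney 1 day after the same clamp, by log2(intensity + 16) on 1 Affymetrix array a side, so 2 of the 6 arrays of the series carry the comparison. Per the labels, the mice were male FVB/N, 6 to 8 weeks old and 22 to 26 g. Under pentobarbital the pedicle of 1 kidney was closed with an arterial microclamp for 45, 0 or 60 min and then released, and the organ was collected at day 3 or day 1. The same day difference between the arrays of the kidneys labelled 0 min is set beside it, and the 60 min arrays are given where they help to place a value. No agent, transgene or TNF blockade is named for these 6 samples, although the series concerns TNF blockade after this injury. The labels do not say whether 1 array held RNA of 1 animal. With 1 array for each clamp time and day there is no replicate check, so genes are described by size alone.

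Clamping and releasing the renal vessels stops and restores blood flow. The proximal tubule, which has a high oxygen demand, is known to be hurt most. In the days that follow, surviving tubule cells dedifferentiate, enter S phase and divide, injury proteins such as KIM-1 and NGAL are made, and monocytes and macrophages move in. Misfolded protein after such stress is met by cytosolic heat shock proteins and by the unfolded protein response, in which chaperones of the endoplasmic reticulum are induced.

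The arrays held kidney RNA of similar overall signal. Median intensities lay between 81.4 and 95.3, and 18.4% to 20.6% of probe sets lay below an intensity of 16. Slc34a1, the proximal tubule phosphate transporter gene, had intensities of 24702 and 17830 on the 45 min day 3 and day 1 arrays, and Umod, the uromodulin gene of the loop of Henle, had 39076 and 31404. As signs of RNA quality, the beta-actin control probe sets had a log2 signal at the 3' end over the 5' end of 1.03 and 1.10 on the 45 min day 3 and day 1 arrays, against 0.77 and 1.12 on the 0 min arrays of the same days. The same measure for Gapdh was -0.33 and -0.22, against -0.37 and -0.23. Of the 12735 genes that passed a filter on mean intensity, the 45 min day 3 array was the lowest of the 6 arrays for 20.3% and the highest for 10.7%, and the 45 min day 1 array was the lowest for 11% and the highest for 14.0%.

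Of these genes, 150 (1.18%) were at least 2-fold higher at day 3 than at day 1 after 45 min and 259 (2.03%) were at least 2-fold lower. At 0 min, 218 (1.71%) were at least 2-fold higher at day 3 and 175 (1.37%) lower, and at 60 min 384 (3.02%) higher and 139 (1.09%) lower. Day differences spread alike, with an SD across genes of 0.43 at 45 min and 0.42 at 0 min, and had medians of -0.07 and -0.00. The share of 2-fold calls that were higher was 36.7% at 45 min and 55.5% at 0 min. With quantile normalization these shares were 47.5% and 64.8%, and with arrays centred on their medians 51.0% and 70.7%, which moved the median of all genes to 0.03 and 0.12. With no filter the order turned round, with 52.8% at 45 min and 42.8% at 0 min. Values below are as deposited and are best read against the medians of -0.07 and -0.00. Just inside the 2-fold limit lay Tlcd4 (1.002) and Napepld (-1.002). Mn1 (0.9997) and Rad51ap1 (-0.999) lay just outside it.

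The day differences at 45 min and at 0 min, which share no array, were nearly unrelated across genes (Pearson r = 0.014, Spearman rho = 0.028 over 12735 genes, which are not independent replicates). For 45 and 60 min r was 0.12 and for 0 and 60 min 0.36, also with no array in common. Genes at least 2-fold higher in both numbered 15, 10% of those at 45 min and 6.88% of those at 0 min. Genes lower in both numbered 22, which is 8.49% and 12.6%. The 45 min day difference exceeded that at 0 min by at least 2-fold in 368 genes (2.89%) and fell short of it by as much in 675 (5.3%). Of all genes, 33 passed 2-fold in opposite directions. Higher after 45 min and lower at 0 min were 12, which is 8% of those higher at 45 min and 6.86% of those lower at 0 min. Lower after 45 min and higher at 0 min were 21, which is 8.11% of those lower at 45 min and 9.63% of those higher at 0 min. The scatter of the day differences shows this as a cloud with no slope, from which a few gene groups stand out along one axis.

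**Figure D1:**
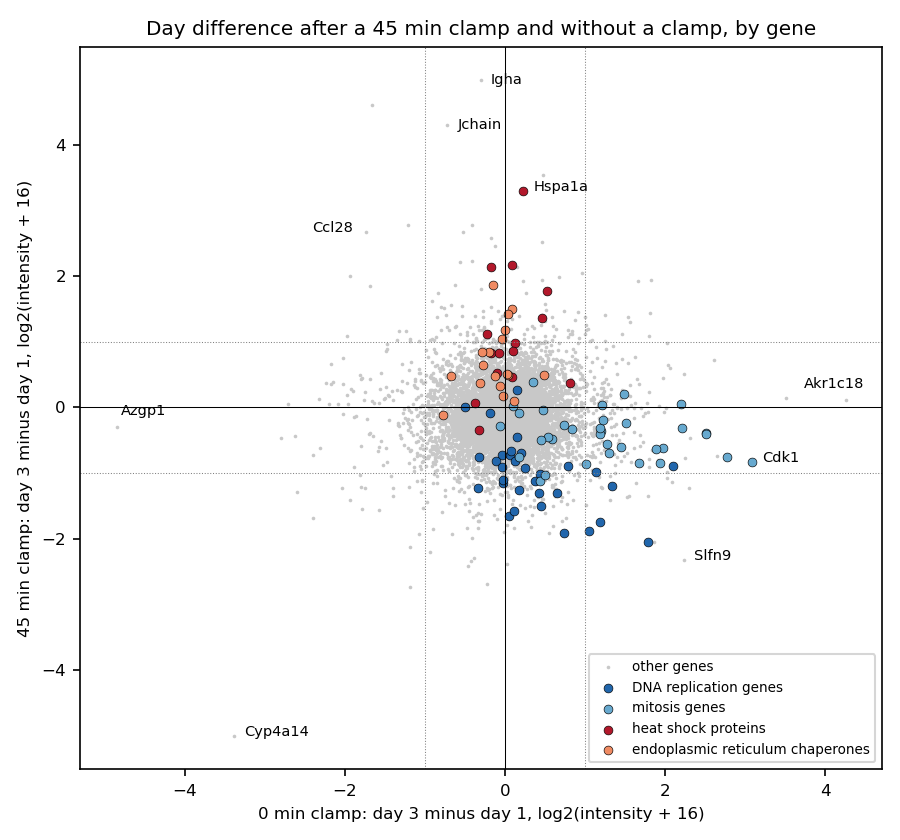
Each point is 1 of 12735 genes, placed by its day 3 minus day 1 difference in log2(intensity + 16) at 0 min (horizontal axis) and at 45 min (vertical axis), with dotted lines at 2-fold. DNA replication genes lie low (list median -1.0 at 45 min and 0.16 at 0 min), mitosis genes lie to the right (-0.40 and 1.21), and heat shock proteins (0.85 and 0.09) and chaperones of the endoplasmic reticulum (0.50 and -0.04) lie high.

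DNA replication genes were the list with the lowest median at day 3 after 45 min. Of 32 measured members, 30 were lower at day 3 than at day 1, 16 of them at least 2-fold, and 0 were 2-fold higher. The list median was -1.0, against 0.16 at 0 min, where 6 were at least 2-fold higher and 0 lower, and -0.17 at 60 min. Mcm5 and Mcm6 encode subunits of the MCM helicase, which unwinds DNA at replication origins. Mcm5 had intensities of 267 and 1049 on the 45 min day 3 and day 1 arrays, against 334 and 194 on the 0 min day 3 and day 1 arrays (day differences -1.91 and 0.74). Mcm6 had 226 and 799 after 45 min, against 215 and 85.9 at 0 min (-1.75 and 1.18). For both genes the 45 min day 3 kidney stood near the 0 min day 3 kidney, and the 45 min day 1 kidney was the one with the high value of these 4. On the 60 min arrays both genes were brighter still, Mcm5 with 1538 and 2063 and Mcm6 with 1173 and 1706 at day 3 and day 1.

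Other steps of replication moved in the same direction. Pole, for the catalytic subunit of DNA polymerase epsilon, had 40.8 and 218 after 45 min, against 57.4 and 5.25 at 0 min (-2.04 and 1.79), so that the 0 min difference rests on a value below the added 16. Uhrf1, which keeps DNA methylation after replication, had 159 and 629, against 141 and 59.7 (-1.88 and 1.05). The licensing factor gene Cdt1 differed by -1.65, the GINS subunit gene Gins1 by -1.58 and the thymidine kinase gene Tk1 by -1.30 after 45 min, against 0.05, 0.11 and 0.65 at 0 min. E2f1, for a transcription factor of S phase entry, had 68.6 and 182, against 29.1 and 40.6 (-1.23 and -0.33). The sliding clamp gene Pcna, with 3493 and 4768 against 3174 and 2858, differed by only -0.45 and 0.15. Mcm2 (0.00) and Mcm10 (0.26) were the 2 members that were not lower at day 3 after 45 min.

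Mitosis genes were lower by less, and they differed from the 0 min pair by more. Of 34 measured members, 29 were lower at day 3 after 45 min, 2 of them at least 2-fold, and 0 were 2-fold higher (median -0.40). At 0 min 33 of 34 were higher at day 3, 21 of them at least 2-fold (median 1.21), and at 60 min the median was 1.51. The 2 members past 2-fold at 45 min act in the spindle checkpoint. Bub1 had 48.2 and 124 after 45 min, against 40.8 and 25.9 at 0 min (-1.13 and 0.44). Mad2l1 had 366 and 761, against 270 and 185 (-1.02 and 0.51). Cdk1, the kinase that drives entry into mitosis, had 245 and 451, against 139 and 2.22 (-0.84 and 3.09), so its 0 min difference starts from a day 1 value near background. The proliferation marker Mki67 had 370 and 488, against 244 and 29.6 (-0.38 and 2.51). For both genes the 45 min day 1 value was the highest of these 4 and the 0 min day 1 value the lowest. Of the 34 mitosis genes, 32 were lowest of all 6 arrays on the 0 min day 1 array, as were 22 of the 32 replication genes and 17.8% of all genes. On the 0 min day 1 array 8 of 36 mitosis genes lay below an intensity of 16, as did 18.4% of all probe sets. Set against 0 min on the same day, the mitosis median was 0.31 at day 3 and 1.74 at day 1, and that of the replication genes 0.04 and 1.44. These last values use the same arrays as the day differences. The genes Kif23, for a kinesin of cytokinesis (0.38), and Ccnb2, for cyclin B2 (0.20), were among the 5 members that were not lower at day 3 after 45 min.

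Genes of both groups are known targets of cell cycle promoter elements, so their promoters were searched. RefSeq promoters of GRCm38.p6 were matched by symbol for 25 of the 32 replication genes (30 promoters) and 28 of the 34 mitosis genes (30 promoters), and the 250 bases before the start were read on both strands. The E2F letters TTTGGCGC or TTTCCCGC were found in 5 replication promoters (16.7%) and 0 mitosis promoters, against 1.30% of all 32851 and 2.28% of the 13177 promoters of genes that passed the filter. The CHR letters TTTGAA were found in 3 replication (10%) and 11 mitosis promoters (36.7%), against 16% and 10.6%. The CCAAT box, searched as CCAAT, was found in 16 (53.3%) and 24 (80%), against 33.8% and 34.4%. These are matches of letters, not sites shown to be bound. Mcm6 and Cdk1 are printed as examples, chosen because they hold the letters searched, which most promoters of these groups lack for E2F and CHR. E2F and CCAAT matches are in capitals for Mcm6 and CHR and CCAAT matches for Cdk1, read in the direction of the gene.
Mcm6, chr1:128359706-128359955, minus strand: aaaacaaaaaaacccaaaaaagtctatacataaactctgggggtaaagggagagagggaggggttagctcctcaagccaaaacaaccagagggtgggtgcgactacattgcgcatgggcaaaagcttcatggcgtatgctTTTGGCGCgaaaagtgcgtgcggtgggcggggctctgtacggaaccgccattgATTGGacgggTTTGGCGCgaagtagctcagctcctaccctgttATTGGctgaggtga
Cdk1, chr10:69352913-69353162, minus strand: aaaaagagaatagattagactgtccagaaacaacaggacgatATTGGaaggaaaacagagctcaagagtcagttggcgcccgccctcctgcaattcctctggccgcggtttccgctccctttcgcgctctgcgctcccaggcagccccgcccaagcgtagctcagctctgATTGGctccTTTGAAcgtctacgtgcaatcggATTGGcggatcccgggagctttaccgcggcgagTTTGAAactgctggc
In these windows Mcm6 held 2 E2F matches and 2 CCAAT boxes, and Cdk1 held 2 CHR matches and 3 CCAAT boxes.

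Heat shock proteins had the highest list median at day 3 after 45 min. Of 15 measured members, 14 were higher, 6 of them at least 2-fold, and 0 were 2-fold lower (median 0.85). At 0 min 8 were higher and 0 passed 2-fold (median 0.09), and at 60 min the median was 0.13. Hspa1a, for an inducible HSP70 chaperone, had intensities of 7932 and 797 on the 45 min day 3 and day 1 arrays, against 1424 and 1214 on the 0 min arrays (3.29 and 0.23). Hspa1b, its near-identical neighbour, had 26781 and 5920, against 8619 and 8093 (2.17 and 0.09). Whether the array separates the signals of this pair was not tested. Hsph1, for the HSP110 nucleotide exchange factor of HSP70, had 11642 and 2626, against 5424 and 6091 (2.14 and -0.17). In all 3 genes the 45 min day 3 value lay above every other array. For Hspa1a and Hsph1 the 45 min day 1 value lay below every other array, while Hspa1b was lowest at 60 min day 1 (4970). The list as a whole showed the same picture, with 11 of 15 members highest of the 6 arrays at 45 min day 3 and 8 lowest at 45 min day 1. The background for these counts is 10.7% and 11% of all genes.

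The co-chaperones followed. Dnaja1 and Dnajb1, for J proteins that hand substrates to HSP70, differed by 1.77 and 1.36 after 45 min, against 0.52 and 0.47 at 0 min, and the small heat shock protein gene Hspb1 by 1.11, against -0.23. The constitutive HSP70 gene Hspa8 had 45419 and 23029, against 37629 and 34492 (0.98 and 0.13). Hsp90aa1, for inducible HSP90, differed by 0.83 and -0.07, and Bag3, a partner of HSP70, by 0.85 and 0.10. The mitochondrial chaperonin genes Hspd1 (0.46) and Hspe1 (0.52) differed less. Hspb8 was the one member lower at day 3 (-0.35). Set against 0 min on the same day, the list median was 0.34 at day 3 and -0.45 at day 1, so both 45 min arrays lay off the 0 min level, on opposite sides.

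Chaperones of the endoplasmic reticulum moved with them. Of 18 measured members, 17 were higher at day 3 after 45 min, 5 of them at least 2-fold, and 0 were 2-fold lower (median 0.50, against -0.04 at 0 min and 0.02 at 60 min). Creld2, for a protein induced by endoplasmic reticulum stress, had 5329 and 1452 after 45 min, against 2408 and 2675 at 0 min (1.86 and -0.15). Manf, for a secreted stress factor, had 8744 and 3076, against 5307 and 4996 (1.5 and 0.09). Herpud1, which acts in degradation of misfolded protein from the endoplasmic reticulum, had 12102 and 4489, against 6046 and 5901 (1.43 and 0.03). The J protein gene Dnajb9 (1.18, against 0.00) and Sdf2l1 (1.04, against -0.04) were the other 2 past 2-fold. Hspa5, for the central chaperone BiP, had 24103 and 13431, against 16252 and 18682 (0.84 and -0.20). Here too 14 of 18 members were highest of all 6 arrays at 45 min day 3 and 8 were lowest at 45 min day 1. The integrated stress response list, by contrast, had a median of 0.00, with 2 of 21 at least 2-fold higher, the transcription factor gene Atf4 (1.08, against 0.35) and the glutathione-degrading enzyme gene Chac1 (1.02, against -0.13).

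Promoters of both chaperone groups were read in the same way. A pair of heat shock element units, GAANNTTC or TTCNNGAA, which can overlap in a chain, was found in 8 of 18 promoters of 13 heat shock genes (44.4%) and in 0 of 16 promoters of 16 endoplasmic reticulum genes, against 12.8% of all promoters and 10.1% of those of genes that passed the filter. The endoplasmic reticulum stress element, a CCAAT box followed after 9 free bases by CCACG, was found in 7 of the 16 (43.8%) and in 0 of the 18, against 0.113% and 0.114%. The search for the latter and the printing of Creld2 were added after the values were seen. Hspa1a and Hsph1, 2 of the heat shock genes with the highest differences, and Creld2, the first of its list, are shown with the matching element in capitals. RefSeq lists 2 promoters for Hsph1, and the first is printed.
Hspa1a, chr17:34972157-34972406, minus strand: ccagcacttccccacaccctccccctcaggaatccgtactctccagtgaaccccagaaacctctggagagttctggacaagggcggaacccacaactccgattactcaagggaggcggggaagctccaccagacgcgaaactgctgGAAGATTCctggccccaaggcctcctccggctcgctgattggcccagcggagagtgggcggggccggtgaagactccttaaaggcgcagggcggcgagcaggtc
Hsph1, chr5:149636337-149636586, minus strand: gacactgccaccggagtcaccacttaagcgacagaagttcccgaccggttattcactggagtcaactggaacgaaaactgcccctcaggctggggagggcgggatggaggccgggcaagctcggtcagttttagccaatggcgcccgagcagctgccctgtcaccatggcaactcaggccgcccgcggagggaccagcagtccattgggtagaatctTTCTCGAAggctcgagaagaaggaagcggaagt
Creld2, chr15:88819396-88819645, plus strand: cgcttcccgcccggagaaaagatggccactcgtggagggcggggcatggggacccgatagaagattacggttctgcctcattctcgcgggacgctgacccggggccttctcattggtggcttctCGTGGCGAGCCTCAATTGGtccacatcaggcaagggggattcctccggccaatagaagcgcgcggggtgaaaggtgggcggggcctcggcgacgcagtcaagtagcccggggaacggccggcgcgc
Each of these 3 windows held 1 match to the element named for its group. A match of letters says nothing of whether a factor was bound in these kidneys.

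**Figure D2:**
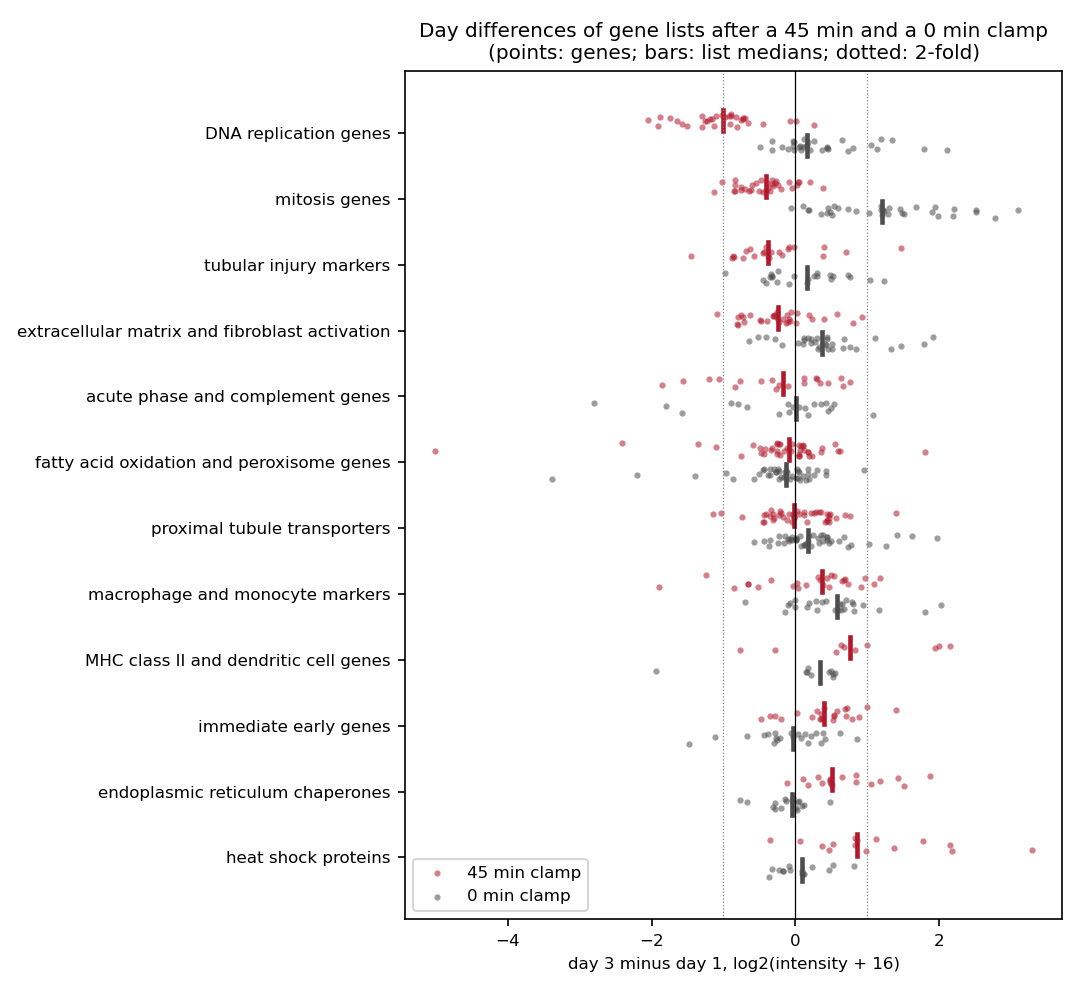
Each point is a gene, placed by its day 3 minus day 1 difference in log2(intensity + 16), in red for 45 min and in grey for 0 min, and upright bars mark list medians. The red bar lies left of the grey bar by the widest margin for mitosis (-0.40 against 1.21) and DNA replication genes (-1.0 against 0.16) and right of it for heat shock proteins (0.85 against 0.09).

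Immunoglobulin transcripts gave the largest upward differences of single genes. Igha, for the heavy chain of IgA, had intensities of 12185 and 369 on the 45 min day 3 and day 1 arrays, against 10885 and 13435 on the 0 min arrays and 1587 and 2395 on the 60 min arrays (day differences 4.99, -0.30 and -0.59). Its 3 probe sets differed by 4.60 to 4.99 at 45 min. Jchain, for the joining chain of polymeric IgA and IgM, had 2989 and 137 after 45 min, against 2534 and 4182 at 0 min (4.30 and -0.72). The kappa light chain genes Igkv8-30 (4.61, against -1.66), Igkv9-120 (2.78, against -1.21) and Igk (2.67, against -0.52) went the same way, although probe sets of variable segments can detect related segments. The other probe set of Igkv9-120 that passed the filter differed by 0.65 at 45 min. In each of these 5 genes the 45 min day 1 kidney was the lowest of the 6, and the 45 min day 3 kidney lay within 2-fold of the 0 min day 3 kidney except for Igkv8-30. Of 12 B and plasma cell markers on the array, 8 passed the filter, 6 of these were higher at day 3 after 45 min and 2 at least 2-fold (median 0.26, against -0.30 at 0 min). The summed intensity of the 12 was 17031 and 11724 after 45 min, against 16021 and 19376 at 0 min. Igha is not in this list and Jchain gave 2989 and 137 of the 45 min sums, so other members made up most of them. These sums are not a measure of B or plasma cell content. On the 45 min day 1 array 4 of the 12 lay below 16, Cd79a (1.66) and Pax5 (1.86), which define B cells, Tnfrsf17 of plasma cells (2.85) and Igk (11.6). Of all probe sets on that array, 20.6% lay below 16. On the 60 min day 1 array 3 of the 12 did, and on each other array 1. Cd79a stayed below 16 on all 6 arrays. In whole kidney RNA, fewer cells of a type and less RNA per cell cannot be told apart.

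A pair of epithelial genes tied to IgA was also higher at day 3 after 45 min. Ccl28, for a chemokine that attracts IgA-producing cells to mucosal surfaces, had 3857 and 590 after 45 min, against 2473 and 8240 at 0 min and 928 and 2105 at 60 min (2.68, -1.73 and -1.17). All 3 of its probe sets were higher after 45 min, by 2.08 to 2.68. Pigr, for the receptor that carries polymeric immunoglobulin across epithelia, had 3622 and 1611, against 2767 and 6557 (1.16 and -1.24). Its other probe set gave 0.57 and -1.03, under 2-fold after 45 min. Pigr was chosen after its values were seen. In both genes the 2 day differences had opposite signs, and the 0 min day 1 kidney had the highest value of the 6.

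Antigen presentation genes were higher at day 3 after 45 min. Of 10 measured MHC class II and dendritic cell genes, 8 were higher, 3 at least 2-fold (median 0.75, against 0.34 at 0 min and 1.29 at 60 min). H2-Aa, for the alpha chain of a class II molecule, had 3555 and 793 after 45 min, against 2252 and 2024 at 0 min (2.14 and 0.15). Of its other probe sets that passed the filter, one gave 1.70 and 0.72 and another 0.98 and 1.06, with no excess over 0 min in the last. Cd74, the invariant chain that guides class II molecules, had 1964 and 501, against 1177 and 851 (1.94 and 0.46). The beta chain gene H2-Ab1 differed by 0.99 and 0.52, and its 3 probe sets by 0.99 to 2.17 at 45 min. H2-Aa and Cd74 had 3372 and 768, and 2331 and 518, on the 60 min day 3 and day 1 arrays. In these 2 probe sets the clamped kidneys of both lengths were low at day 1 and high at day 3. The day 3 part did not hold throughout. H2-Ab1 had 1076 at 45 min day 3, against 1364 at 0 min day 3. The dimmest H2-Aa probe set that passed had 352 at 45 min day 3 and 305 at 60 min day 3, against 488 at 0 min day 3. Batf3, for a transcription factor of dendritic cells, had 147 and 24.8, against 24.7 and 140 (2.00 and -1.94).

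Macrophage and monocyte markers were mixed. Of 26 measured, 18 were higher at day 3 after 45 min, with 2 at least 2-fold higher and 2 lower (median 0.36, against 0.57 at 0 min and 1.74 at 60 min). Summed over the 28 markers on the array, intensity was 30423 and 19796 after 45 min, against 20504 and 10766 at 0 min and 77047 and 18892 at 60 min. The Fc receptor gene Fcgr3 had 529 and 225 after 45 min, against 315 and 176 (1.18 and 0.79), and the lysozyme gene Lyz2 5504 and 2572, against 3124 and 889 (1.09 and 1.79). In contrast Arg1, for arginase, had 107 and 442, against 99.5 and 100 (-1.89 and -0.01), and the scavenger receptor gene Cd68 182 and 452, against 195 and 121 (-1.24 and 0.62). The neutrophil list had a median of 0.51 over 9 genes and that of T and NK cells 0.42 over 4 genes, with 0 genes of either past 2-fold.

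Chemokine and cytokine genes had a median of -0.00 over 25 members, of which 4 were at least 2-fold higher and 0 lower. Besides Ccl28 these were Cxcl1, Ccl8 and Il11. Cxcl1, for a neutrophil attractant, had 1723 and 356 after 45 min, against 183 and 248 at 0 min and 2255 and 1759 at 60 min (2.22, -0.41 and 0.36). The 45 min day 3 kidney thus had a Cxcl1 value close to those of the 60 min kidneys, and the 45 min day 1 kidney one close to those of the 0 min kidneys. The monocyte chemokine gene Ccl8 differed by 1.44, against 1.81 at 0 min, and the IL-6 family cytokine gene Il11 by 1.32, against 0.03. Tnf was dim and below the filter, with 36.3 and 4.43 after 45 min, against 18.4 and 9.49 at 0 min. Of 24 genes of TNF receptors and NF-kB feedback, 2 were at least 2-fold higher and 0 lower (median 0.07), the NF-kB cofactor gene Bcl3 (1.22) and Tnfrsf12a, for the TWEAK receptor (1.17). The other probe set of Tnfrsf12a differed by 0.39, under 2-fold.

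Immediate early genes, the first to respond to stimuli, were higher in 19 of 23 measured members (median 0.40, against -0.04 at 0 min and 0.54 at 60 min). Dusp1, for a phosphatase that switches off MAP kinases, had 5049 and 1907 after 45 min, against 1989 and 1760 at 0 min (1.40 and 0.17), and was the one member past 2-fold. The transcription factor genes Egr2 (1.00, just under 2-fold), Maff (0.89), Atf3 (0.79) and Fos (0.58) followed. The other probe set of Egr2 differed by 1.88, past 2-fold. Ddit4, an inhibitor of mTOR signalling induced by stress and hypoxia, had 2531 and 957, against 1040 and 1062 (1.39 and -0.03). It was the one gene past 2-fold among 26 hypoxia and glycolysis genes (median 0.12).

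**Figure D3:**
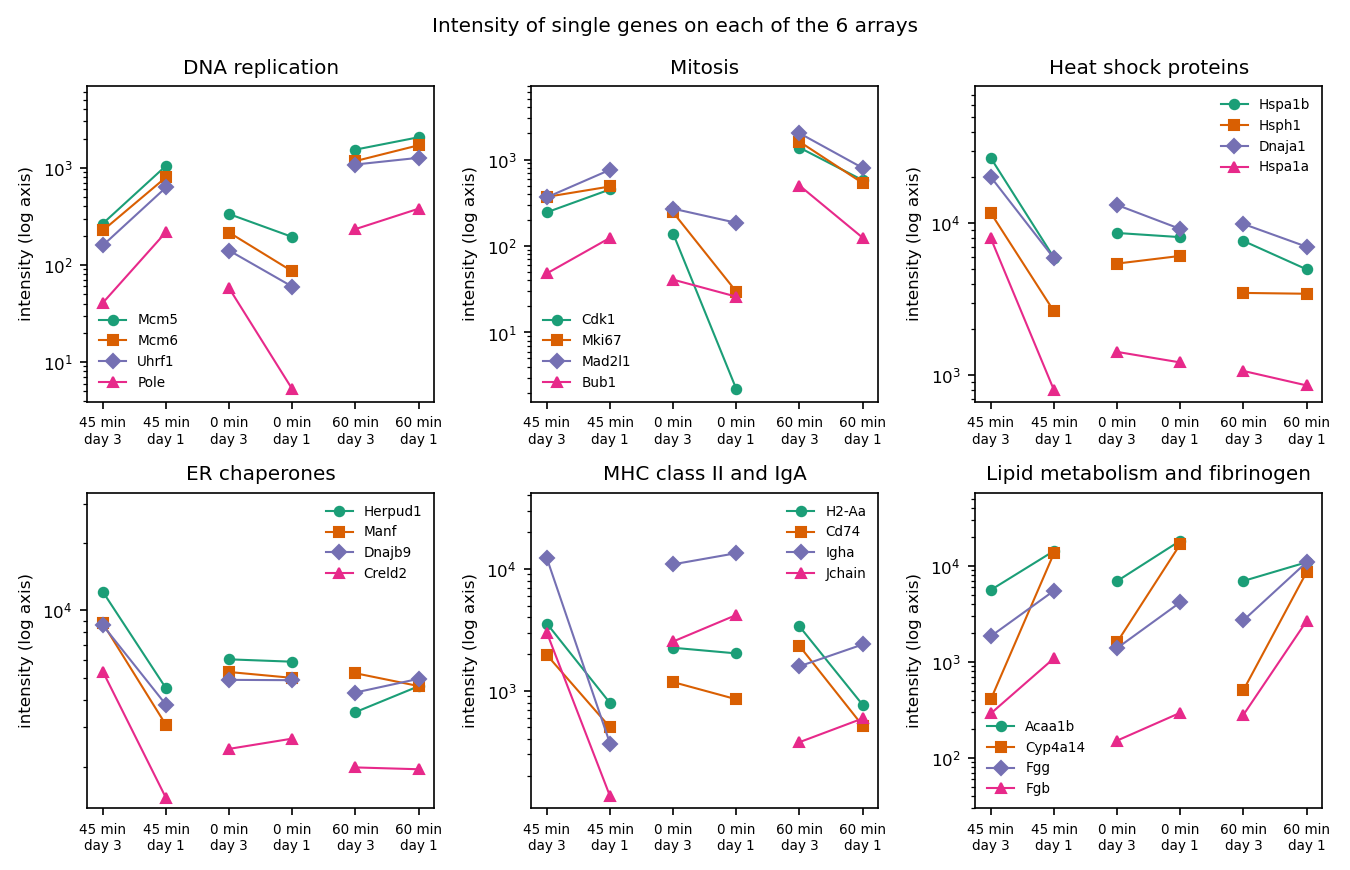
Intensity on a log axis of 4 genes in each of 6 groups on the 6 arrays, with lines joining the day 3 and day 1 arrays of 1 clamp time. Heat shock, endoplasmic reticulum and IgA genes are low at 45 min day 1 (Hspa1a 797, Igha 369) and high at 45 min day 3 (7932, 12185), while replication genes run the other way (Mcm5 1049 and 267).

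Tubular injury markers were lower at day 3 than at day 1 after 45 min in 19 of 23 measured members (median -0.38, against 0.15 at 0 min and 0.37 at 60 min), with 1 at least 2-fold lower and 1 higher. Havcr1, for the injury molecule KIM-1, had 2548 and 4216 after 45 min, against 1242 and 599 at 0 min and 11483 and 13011 at 60 min (-0.72, 1.03 and -0.18). Lcn2, for NGAL, had 1423 and 3911, against 640 and 1273 (-1.45 and -0.97). For both genes each 45 min kidney lay above the 0 min kidney of its day and below the 60 min kidney. The adhesion molecule gene Vcam1 was the member that was 2-fold higher, with 1481 and 526, against 682 and 404 (1.47 and 0.73). The keratin genes Krt19 (-0.88) and Krt20 (-0.38) and the annexin gene Anxa3 (-0.86) were lower by less than 2-fold.

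Matrix genes were lower at day 3 after 45 min in 24 of 32 measured members (median -0.24, against 0.37 at 0 min), 1 of them at least 2-fold. That gene was Col4a2, for a basement membrane collagen, with 2902 and 6182, against 3087 and 2658 (-1.09 and 0.21). Col1a1, for fibrillar collagen I, had 684 and 1209, against 535 and 131 (-0.81 and 1.91). Like the mitosis genes, 25 of the 32 were lowest of all arrays at 0 min day 1, against 17.8% of all genes. Endothelial markers had a median of -0.30 over 27 genes, with 21 lower and 0 past 2-fold, and fibroblast and pericyte markers one of -0.20 over 10. With median centring the matrix median was -0.14, the endothelial -0.20 and the fibroblast -0.10.

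The largest single difference downward was that of Cyp4a14, for a fatty acid omega-hydroxylase that is a known target of the lipid receptor PPAR alpha. It had 407 and 13595 after 45 min, against 1603 and 16833 at 0 min and 506 and 8576 at 60 min (-5.01, -3.38 and -4.04), so it was lower at day 3 in all 3 pairs. Acaa1b, for a peroxisomal thiolase, was lower in both pairs to a like extent, with 5609 and 14310, against 6942 and 18293 (-1.35 and -1.40). The fatty acid binding protein gene Fabp1 had 13.0 and 138, against 33.1 and 51.3 (-2.41 and -0.46), and the bile acid side-chain oxidase gene Acox2 1658 and 3596, against 2212 and 1649 (-1.11 and 0.42). The rest of the list of fatty acid oxidation and peroxisome genes stood near 0, with a median of -0.08 over 43 members, 4 at least 2-fold lower and 1 higher. That one was Cyp4a12a, for a male-predominant arachidonic acid hydroxylase of mouse kidney, with 6484 and 1855, against 5738 and 7070 (1.80 and -0.30).

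Other P450 genes were higher too. Of 28 cytochrome P450 and steroid enzyme genes, 22 were higher, 4 at least 2-fold, and 1 was at least 2-fold lower (median 0.33, against 0.14 at 0 min, and 0.17 with quantile normalization). Cyp7b1, for an oxysterol hydroxylase, had 7714 and 1391 after 45 min, against 12608 and 13732 at 0 min and 887 and 2373 at 60 min (2.46, -0.12 and -1.40). Its 45 min day 3 value was nearer to the 0 min kidneys and its day 1 value nearer to the 60 min kidneys. Other called members had the same sign at 0 min. Cyp27b1 differed by 1.26, against 1.01 at 0 min, and Cyp2j13 by 1.19, against 0.64. The gene that was 2-fold lower was Cyp26b1 (-1.41, against -1.93). Alas1, for the first enzyme of heme synthesis, had 6193 and 3025, against 3317 and 6341 (1.03 and -0.93).

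Proximal tubule transporters had a median of -0.01 over 45 members, 1 at least 2-fold higher and 2 lower, against a median of 0.18 and 5 higher at 0 min. The organic anion transporter gene Slco1a1 had 12824 and 4846 after 45 min, against 11233 and 4699 at 0 min (1.40 and 1.25), so it was higher at day 3 in both pairs. The amino acid transporter gene Slc7a12 had 646 and 1449, against 219 and 157 (-1.15 and 0.44), and the citrate transporter gene Slc13a2 1076 and 2210, against 1370 and 1608 (-1.03 and -0.23). Fibrinogen genes, which the liver and the injured tubule make, were lower in both pairs. Fgb had 289 and 1088 after 45 min, against 151 and 294 at 0 min (-1.85 and -0.89), Fgg differed by -1.57 and -1.57 and Fga by -1.21 and -1.80. Saa3, for an acute phase amyloid protein, had 682 and 1444, against 355 and 314 (-1.07 and 0.17). These 4 were the members past 2-fold among 20 acute phase and complement genes (median -0.17).

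How far probe sets of 1 gene agree was read from genes with more than 1 probe set. These probe sets read the same RNA on the same arrays, so their spread holds no variation between animals or arrays. Over 5967 such genes the day differences of the brightest and the second brightest probe set had r = 0.50 at 45 min and 0.36 at 0 min, and an SD of their difference of 0.41 and 0.46. Of 118 genes past 2-fold at 45 min by the brightest, 108 had the same sign by the second and 44 were past 2-fold there too. The probe sets of Cxcl1 differed by 0.67 to 2.22 and those of Hspa1b by 2.17 to 2.84, with 1 sign throughout. Those of Prdm11, among the 12 highest genes at 45 min, disagreed in sign (-0.52 and 2.51). A difference that starts or ends below 16 depends on the added 16. This held for 9 of the 150 genes higher at day 3 after 45 min and 18 of the 259 lower, and for 32 of 218 and 26 of 175 at 0 min.

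**Figure D4:**
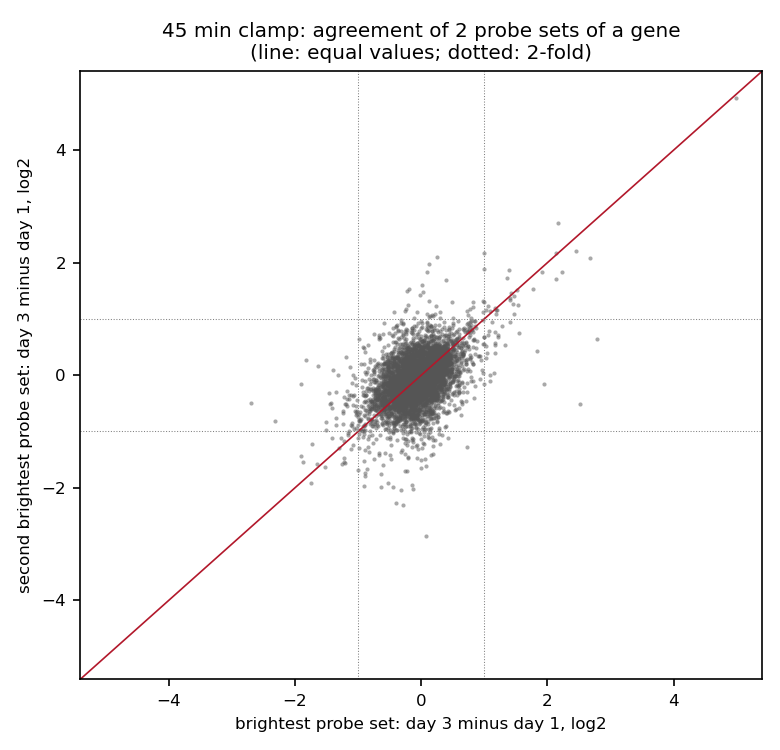
Each point is 1 of 5967 genes with at least 2 probe sets, placed by its 45 min day difference in log2(intensity + 16) in the brightest (horizontal axis) and the second brightest (vertical axis), with a line at equal values. Points scatter about the line with an SD of 0.41, so single differences well under 2-fold lie within the spread of 2 probe sets of a gene. This spread holds no variation between animals or arrays, so it sets no limit above which a difference can be trusted.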

How the data were processed

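Kidney RNA was isolated with Trizol and turned into biotinylated cRNA for 3' expression arrays, per the labels' protocols. The deposited values are linear intensities, 1 per probe set and array, made with Affymetrix Expression Console, as the submitters' processing notes list. The sources used here give neither its version nor how probes were summarised. The deposited intensities average 500 on each array once the highest and lowest 2% of probe sets are left out, so arrays are scaled alike.

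Values were taken as log2(intensity + 16), which understates differences of dim genes. Of 45101 probe sets, 34945 had 1 gene symbol, 932 had several, 9160 had none and 64 were controls. Names came from the platform annotation, and 34741 matched an identifier in RefSeq. The probe set with the highest mean stood for its gene (18193), and 12735 genes with a mean of at least 6.01, the 40th percentile of probe sets, were kept. A day difference is day 3 minus day 1. With 1 array a side and 0 residual degrees of freedom, a gene was called when its difference reached 2-fold, and there are no p-values. As a check of the arithmetic, the calling step was run on known shifts set without noise into copies of 1 array. This cannot show how often a call from single arrays is wrong. Python 3.11.15, numpy 2.4.6, pandas 2.3.3 and scipy 1.17.1 were used.

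Genes were named by rule: the 12 highest and 12 lowest at 45 min, the 8 highest and 8 lowest by the difference between the 45 and 0 min day differences, up to 4 of each of 41 lists by size, and 8 always. Predicted genes were passed over. Lists and members were chosen with earlier results of these data known. Of 993 symbols listed, the array held 909, and 835 passed the filter. Alternatives were quantile normalization, median centring, pseudocounts of 1 and 64, the mean over probe sets in place of the brightest, and a filter at the 60th percentile or none. Promoters came from RefSeq.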

Additional observations from a re-analysis of the deposited data

Results flagged for a closer look

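Of the 187 genes named by rule, 11 were at least 2-fold higher in one day difference and at least 2-fold lower in the other, against 33 of all 12735 genes. The rule takes the 8 highest and 8 lowest genes by the difference of the day differences, so it favours such genes. The values are the 45 min day difference minus the 0 min day difference, and none of these differences was tested, since each rests on 4 single arrays. Higher after 45 min and lower at 0 min were Igkv8-30 (6.27), Ccl28 (4.41), Igkv9-120 (3.99), Batf3 (3.93) and Inhbb (3.53), the last for the beta B chain of activins, with intensities of 714 and 188 at 45 min day 3 and day 1, against 90.9 and 329 at 0 min. The other probe set of Inhbb that passed the filter differed by 0.43 at 45 min and that of Igkv9-120 by 0.65, both under 2-fold. All 3 probe sets of Ccl28 were past 2-fold at 45 min. Lower after 45 min and higher at 0 min were Slfn9 (-4.56), Wipf3 (-3.91), Pole (-3.83), Fignl1 (-3.53), Mcm6 (-2.93) and Uhrf1 (-2.93). Slfn9, of the Schlafen family, had 15.6 and 142, against 112 and 11.3, so each pair has 1 array below 16. With a pseudocount of 1 the other of its 2 probe sets became the brightest, with day differences of -1.04 at 45 min and -0.15 at 0 min. That probe set was not higher at day 3 at 0 min. Fignl1, which acts in recombination repair, had 102 and 262, against 96.3 and 6.81. Over all 12735 genes the difference of the day differences was at least 2-fold upward in 368 (2.89%) and downward in 675 (5.3%).

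In another pair of genes the 0 min day difference was far larger in size than that at 45 min. Azgp1, for zinc alpha-2 glycoprotein, had 11.6 and 18 after 45 min, against 12.5 and 802 at 0 min and 15.0 and 773 at 60 min (day differences -0.30, -4.84 and -4.67). Akr1c18, for a steroid dehydrogenase, had 4222 and 3921 after 45 min, against 5296 and 262 at 0 min (0.11 and 4.26).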

How the results depend on the processing

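The counts of genes past 2-fold depend on the pseudocount and the filter. At 45 min 150 were higher and 259 lower at day 3, at 0 min 218 and 175, in the difference of the day differences 368 and 675, and in both pairs alike 15 and 22. In the same order, a pseudocount of 64 gave 80 and 98, 106 and 74, 211 and 370, and 7 and 10. No filter gave 668 and 597, 549 and 734, 1394 and 1228, and 47 and 74, and a filter at the 60th percentile 85 and 110, 114 and 64, 167 and 379, and 8 and 12. Median centring moved the counts alike in both pairs to 23 and 14. With quantile normalization, a pseudocount of 1 and the mean of probe sets, all 8 counts stayed within 1.5 times. Among values of named genes that were at least 2-fold in size, 1 changed sign, the Slfn9 difference at 0 min. It was -0.15 with a pseudocount of 1, where the other probe set of Slfn9 became the brightest. Sign changes of smaller values were not counted. List medians of at least 0.2 in size kept their sign in all alternatives run. The mitosis median at 0 min was 0.74 with a pseudocount of 64, and that of MHC class II and dendritic cell genes at 45 min 1.46 with a filter at the 60th percentile. With the mean of probe sets the 0 min medians of red blood cell and adrenal cortex genes were 0.98 and -0.82. Of the values of named genes, 102 moved beyond the spread between probe sets (27 with a pseudocount of 1, 38 with 64 and 37 with the mean of probe sets) and 2385 did not.

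No paired analysis was possible because the comparison is a single day 3 and day 1 pair at 45 min, and every array carries the same replicate number, so a replicate block leaves the difference as it is with 0 residual degrees of freedom. The single array a side, the unknown number of animals and the brightness of dim genes limit every value.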

Other observations

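Mitochondrial genes showed small day differences. Of 39 oxidative phosphorylation genes, 38 were higher at day 3 after 45 min and 36 at 0 min, with medians of 0.17 and 0.17 and 0 past 2-fold. With quantile normalization the 45 min median was -0.00. The cytochrome c gene Cycs had 39599 and 29690 after 45 min, against 37545 and 33252 at 0 min (0.42 and 0.18). Tricarboxylic acid cycle genes had medians of 0.18 and 0.17 over 16 genes. Loop of Henle markers stood at -0.01 over 16 genes, distal convoluted and connecting tubule markers at 0.18 over 16, collecting duct markers at -0.07 over 24 and podocyte markers at -0.16 over 14, with 0 past 2-fold after 45 min in any of these segments. Gluconeogenesis and amino acid genes had a median of 0.11 over 32 genes, heme and iron handling genes -0.15 over 18, cholesterol genes 0.06 over 26, interferon-stimulated genes 0.09 over 25, p53 targets 0.02 over 19, NRF2 targets 0.01 over 25 and ribosome biogenesis genes -0.03 over 26. Markers of neighbouring tissue had medians of 0.30 for fat (9 genes), -0.48 for skeletal muscle (4 genes), 0.19 for adrenal cortex (2 genes) and -0.01 for red blood cells (3 genes). The brown fat gene Cidea had 794 and 345 after 45 min, against 712 and 391 at 0 min (1.17 and 0.84).

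Clock genes differed in both directions. The repressor gene Nfil3 had 419 and 89.4 after 45 min, against 603 and 301 at 0 min (2.04 and 0.96), and Npas2, a partner of BMAL1, had 136 and 39.5, against 214 and 106 (1.45 and 0.92). Dbp, a clock output gene, had 2762 and 6662, against 1757 and 2955 (-1.27 and -0.74), and Cry2, a clock repressor gene, 84.5 and 201, against 112 and 178 (-1.11 and -0.60). All 4 had the same sign in both pairs. The sources used here do not state the hour of collection.

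Tmem252 had 6084 and 876 after 45 min, against 1241 and 1661 at 0 min (2.77 and -0.42). Tc2n had 254 and 7.29, against 236 and 165 (3.53 and 0.48). Fbxo42 was lower by -2.69 in its brightest probe set and by -0.14 in another. Serpina6, for corticosteroid-binding globulin, had 35.6 and 326, against 15.8 and 56.3 (-2.73 and -1.19).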
